A study of Mus musculus with 65 samples.

Results

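The 376 hotspots described here are wild-type sites of meiotic DNA breakage that carried peaks of MEI4 and of the chromosome axis, and no peak of IHO1. They were taken from the 13808 wild-type DMC1 hotspots, of which 13314 lie on the 19 autosomes. A hotspot was included where it shared at least 1 bp with a wild-type MEI4 peak and with a wild-type HORMAD1 or SYCP3 peak, and shared none with a wild-type IHO1 peak. The 376 hotspots are 2.82% of the autosomal hotspots and 25.7% of the 1465 autosomal hotspots with a MEI4 peak. Over all autosomal hotspots, 4.08% had a wild-type IHO1 peak. They are called axis hotspots without IHO1 below. Of the other MEI4 hotspots, 351 had an axis peak and an IHO1 peak (axis hotspots with IHO1), 714 had neither (MEI4-only hotspots) and 24 had IHO1 without an axis peak. The wild-type MEI4, HORMAD1, SYCP3 and IHO1 lists chose these classes, so their values are given as descriptions, and the other 19 lists are read against them.

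Chromatin was immunoprecipitated and sequenced from whole testes of synchronised male mice, in 65 samples and 36 groups. Pups aged 1.5 days had received an inhibitor of retinoic acid for 7 to 10 days and then retinoic acid. Testes were taken 8 days after that injection, when leptotene and zygotene spermatocytes made up 80 to 95% of the material per the labels. The wild type was C57BL/6JCrl, and all groups shared this treatment. The knockouts were Prdm9KO (B6;129P2-Prdm9tm1Ymat/J), Spo11KO (Spo11tm1Mjn), Mei4KO (Mei4tm1Bdm), Iho1KO (Iho1tm1.2Atot) and Hormad1KO (Hormad1tm1.2Atot). Of the 24 groups with a peak list used here, 21 had 2 samples and 3 had 1 sample, namely SYCP3 in Prdm9KO, Spo11KO and Iho1KO. Each group had 1 list, so no difference between genotypes has a replicate check, and the depth behind each list is unknown. Peak lists hold no cell markers, so the labelled cell stage was not checked.

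In early meiotic prophase SPO11 makes programmed double-strand breaks at sites chosen by PRDM9, a DNA-binding histone methyltransferase. MEI4 is a core partner of SPO11 in break formation, and IHO1 is a coiled-coil protein that binds HORMAD1 and is needed for normal MEI4 foci on the axis. HORMAD1 and SYCP3 are proteins of the chromosome axis, to which the bases of chromatin loops are anchored. DMC1 is the meiotic recombinase that coats the resected single-stranded DNA at breaks, so its signal marks where breaks were made.

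Sequence at the hotspots was available from RefSeq promoter windows only (GRCm38.p6, 250 bases before to 50 after a start site). Of the 376 hotspots, 13 met such a window, and in 3 of them the window held bases within 50 bp of the hotspot centre. These 3 are shown because they give DNA within 50 bp of the centre of a DMC1 hotspot with a MEI4 peak. Each reads 5′ to 3′ on the plus strand, with the bases within 50 bp of the centre in capitals. The first is at chr10:57784673-57784972 at Fabp7, a brain fatty-acid-binding protein gene, the second at chr12:29439264-29439563 at the predicted gene Gm31650, and the third at chr5:116406430-116406729 at the predicted gene Gm36841. The Gm31650 window ends before its hotspot centre, which is at 29439574.
Fabp7: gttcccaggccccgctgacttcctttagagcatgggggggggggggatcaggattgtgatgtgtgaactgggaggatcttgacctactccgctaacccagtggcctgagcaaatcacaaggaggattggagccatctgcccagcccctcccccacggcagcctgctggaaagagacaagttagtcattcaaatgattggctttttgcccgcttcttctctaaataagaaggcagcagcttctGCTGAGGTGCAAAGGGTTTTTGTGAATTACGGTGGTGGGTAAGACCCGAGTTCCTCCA
Gm31650: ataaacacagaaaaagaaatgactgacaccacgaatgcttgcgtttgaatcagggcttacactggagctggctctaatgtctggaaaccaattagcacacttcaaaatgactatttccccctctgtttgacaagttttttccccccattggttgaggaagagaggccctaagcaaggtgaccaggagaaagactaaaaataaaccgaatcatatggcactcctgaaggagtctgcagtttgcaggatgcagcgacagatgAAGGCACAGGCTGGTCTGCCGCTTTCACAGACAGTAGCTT
Gm36841: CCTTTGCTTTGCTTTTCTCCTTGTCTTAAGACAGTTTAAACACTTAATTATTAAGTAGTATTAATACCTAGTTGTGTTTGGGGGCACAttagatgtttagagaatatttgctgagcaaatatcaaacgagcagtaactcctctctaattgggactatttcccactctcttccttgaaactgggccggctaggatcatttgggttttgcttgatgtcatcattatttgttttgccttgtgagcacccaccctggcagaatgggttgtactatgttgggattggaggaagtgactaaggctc

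The Fabp7 hotspot had a DMC1 value of 1747.5 and its centre lay 42 bp from the start site. It had MEI4 peaks in Spo11KO, Iho1KO and Hormad1KO and IHO1 peaks in Spo11KO and Hormad1KO. The Gm31650 hotspot had a DMC1 value of 2540, with its centre 60 bp from the start site, and carried the same 5 knockout peaks plus HORMAD1 and SYCP3 in Spo11KO. The Gm36841 hotspot had a DMC1 value of 1040, with its centre 213 bp from the start site, and the same 5 knockout peaks. All 3 thus had an IHO1 peak in both knockouts, while the rule had excluded one in the wild type. GC content was 54%, 46% and 40.7% in the 3 windows, against a median of 52.7% over all 32851 promoter windows.

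The axis side of these hotspots was mostly SYCP3. In the wild type 251 of the 376 had SYCP3 without HORMAD1, 100 had both and 25 had HORMAD1 without SYCP3. Among the 351 axis hotspots with IHO1 the order was turned, with 261 holding both proteins, 70 SYCP3 without HORMAD1 and 20 HORMAD1 without SYCP3. A HORMAD1 peak was therefore listed at 33.2% of the axis hotspots without IHO1 and at 80.1% of those with IHO1, against 4.66% of all autosomal hotspots. SYCP3 was listed at 93.4% and 94.3%, against 7.56% of all. The wild-type lists chose both classes, so these shares are a description.

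The hotspots were strong, and their strength lay between those of the neighbouring classes. The authors' DMC1 value, whose unit is not named, had a median of 1892.75 at the axis hotspots without IHO1, with quartiles of 1382 and 2560 and a range of 93.5 to 15504. The median was 3632 at axis hotspots with IHO1, 947.75 at MEI4-only hotspots and 128 over all autosomal hotspots. Of the 376, 372 (98.9%) lay in the strongest 25% of autosomal hotspots, as did 97.7% of axis hotspots with IHO1 and 89.5% of MEI4-only hotspots. Those with both HORMAD1 and SYCP3 had a median value of 2567.75, above the 1735 of those with SYCP3 without HORMAD1. Strength was not part of the rule, but peak calls and DMC1 values vary together in these lists. Shares are therefore also weighted below over 4 classes of DMC1 value with near-equal numbers of MEI4 hotspots, written as equal strength. Strength still varied within these classes, and the highest ran from 2644.5 to 20822.5.

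**Figure D1:**
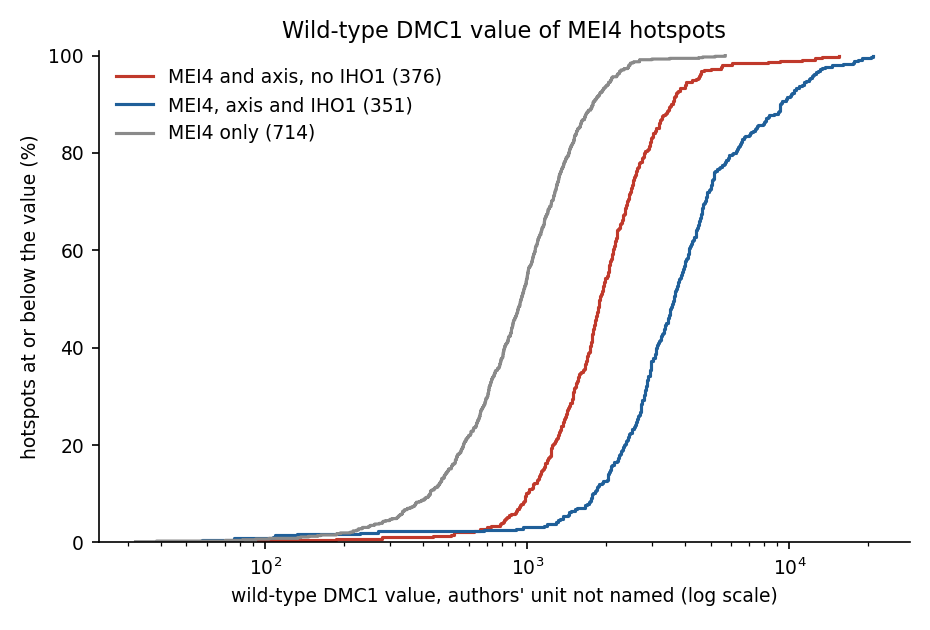
Cumulative share of hotspots (y axis, percent) at or below each wild-type DMC1 value (x axis, log scale, the authors' unnamed unit) for the 3 classes of MEI4 hotspots. The curve of the 376 axis hotspots without IHO1 (median 1892.75) runs between MEI4-only hotspots (median 947.75) and axis hotspots with IHO1 (median 3632).

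IHO1 peaks were listed at most of these hotspots in Spo11KO and Hormad1KO. The rule excluded hotspots with a wild-type IHO1 peak, so the absence in the wild type was set by the choice of hotspots. In Spo11KO 316 of 376 had an IHO1 peak (84.0%, Wilson 95% interval 80.0 to 87.4), and in Hormad1KO 302 did (80.3%, 76.0 to 84.0). Over all autosomal hotspots the shares were 14.6% and 12.7%. IHO1 was listed in both knockouts at 263 of the 376, in Spo11KO without Hormad1KO at 53, in Hormad1KO without Spo11KO at 39, and in neither at 21. The IHO1 list of Spo11KO is longer than that of the wild type, with 2681 peaks against 1589, and the Hormad1KO list has 1860. The part of depth and of the calling threshold in these shares was not tested.

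These shares were then compared with hotspots that had IHO1 in the wild type. The share of axis hotspots with IHO1 that also had it in Spo11KO was 86.0%, and the difference of -2.00 points (axis hotspots without IHO1 minus with, Newcombe 95% interval -7.18 to 3.24) did not exclude 0. In Hormad1KO that share was 86.0% as well, and the difference of -5.72 points (-11.1 to -0.257) excluded 0. Weighted to equal DMC1 strength, the differences turned to 5.10 points (-3.56 to 13.8) and 4.46 points (-4.41 to 13.3). These weighted values lean on DMC1 classes with 9 and 14 axis hotspots with IHO1. Of these 9, 6 had an IHO1 peak and 7 a HORMAD1 peak in Prdm9KO, so many did not need PRDM9 for these peaks. In the same class, 0 and 2 of the 24 axis hotspots without IHO1 had them. Over the classes with at least 20 hotspots of each kind the weighted differences were 2.69 points (-4.92 to 10.3) and 0.731 points (-7.16 to 8.62). With only the wider 50% of each IHO1 list the differences were -6.09 points (-13.3 to 1.17) and -13.4 points (-20.4 to -6.12). The gap in Hormad1KO thus changed sign with the weightings and grew with the wider peaks. MEI4-only hotspots had IHO1 in Spo11KO at 59.7% and in Hormad1KO at 52.5%, which is 24.4 points (19.0 to 29.3) and 27.8 points (22.2 to 33.0) below the axis hotspots without IHO1. At equal strength these gaps shrank to 9.43 points (0.967 to 17.9) and 9.89 points (1.77 to 18). The strongest class held only 9 MEI4-only hotspots. Over the classes with at least 20 hotspots of each kind the gaps were 9.03 points (2.70 to 15.4) and 13.7 points (6.67 to 20.7).

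Strength and IHO1 moved together within the class as well. The 1465 MEI4 hotspots were cut into 4 equal classes of wild-type DMC1 value, which held 24, 92, 173 and 87 of the axis hotspots without IHO1. From the weakest to the strongest class, IHO1 in Spo11KO was listed at 62.5%, 81.5%, 86.1% and 88.5% of them. IHO1 in Hormad1KO was listed at 54.2%, 75%, 83.8% and 86.2%. The weakest class holds few sites, with an interval of 42.7 to 78.8% for IHO1 in Spo11KO. In the strongest class the axis hotspots with IHO1 reached the same 88.5% in Spo11KO, a difference of 0 points (-9.02 to 6.78).

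**Figure D2:**
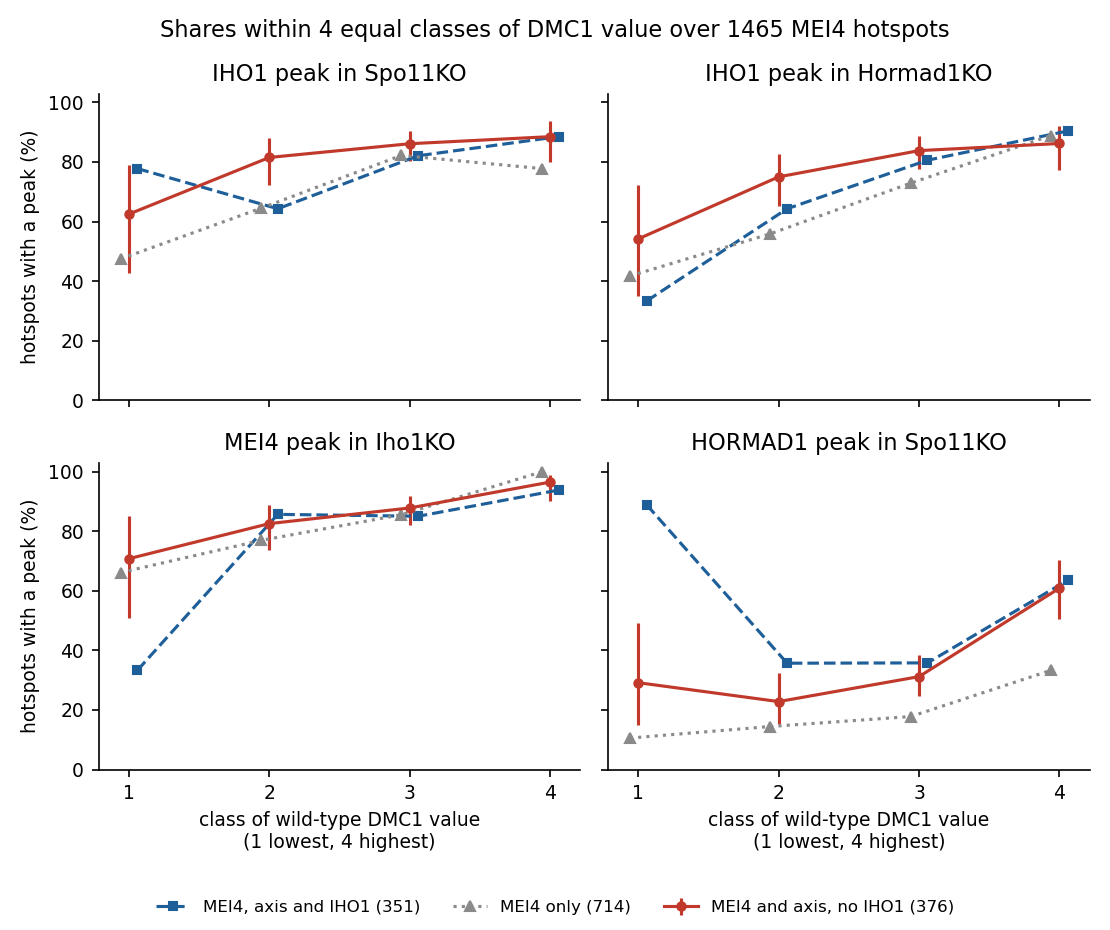
Share of hotspots with a peak (y axis, percent) in each of 4 equal classes of wild-type DMC1 value over the 1465 MEI4 hotspots (x axis, 1 weakest), for 4 lists. Circles are axis hotspots without IHO1, with Wilson 95% bars; squares are axis hotspots with IHO1 (9 and 14 sites in classes 1 and 2) and triangles are MEI4-only hotspots (9 sites in class 4). The circles rise with strength for IHO1 in both knockouts, from 62.5% to 88.5% in Spo11KO.

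IHO1 in Spo11KO was listed more often at hotspots that had an axis protein there than at those without it. Of the 135 hotspots with HORMAD1 in Spo11KO, 90.4% had IHO1 in Spo11KO, against 80.5% of the 241 without, a difference of 9.87 points (2.25 to 16.6). For SYCP3 in Spo11KO the shares were 91.4% of 116 and 80.8% of 260, a difference of 10.6 points (2.78 to 17.1). The DMC1 value differed too: its median was 2326.5 at hotspots with HORMAD1 in Spo11KO and 1761 at those without. The part of strength in these differences was not tested. In Hormad1KO, IHO1 was listed at 81.1% of the 37 hotspots with SYCP3 and 80.2% of the 339 without, a difference of 0.845 points (-14.9 to 11.3).

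IHO1 peaks in the knockouts were listed at hotspots with and without a wild-type HORMAD1 peak. IHO1 was listed in Spo11KO at 112 of the 125 hotspots with wild-type HORMAD1 (89.6%) and at 204 of the 251 without (81.3%), a difference of 8.33 points (0.440 to 15.1). In Hormad1KO the shares were 79.2% and 80.9%, a difference of -1.68 points (-10.7 to 6.48). The median DMC1 value was 2454.5 at the 125 hotspots and 1735 at the 251. Neither difference was weighted for strength.

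In Prdm9KO and Mei4KO, IHO1 peaks at these hotspots were about as rare as over all autosomal hotspots. Since the rule excluded wild-type IHO1 peaks, these counts cannot show a loss. No axis hotspot without IHO1 had an IHO1 peak in Prdm9KO, where 0 of 376 sites allows a share of up to 0.798%, and 1 had one in Mei4KO. All autosomal hotspots had such peaks at 0.150% and 0.293%. These lists are short as well, with 378 peaks in Prdm9KO and 1036 in Mei4KO.

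MEI4 was listed at most of these hotspots in Spo11KO, Hormad1KO and Iho1KO, and at none in Prdm9KO. A MEI4 peak was listed at 363 of 376 in Spo11KO (96.5%, background over all autosomal hotspots 27.8%), at 365 in Hormad1KO (97.1%, background 27.1%) and at 329 in Iho1KO (87.5%, background 19.0%). In Prdm9KO none had one (background 0.0601%), which allows up to 0.798%. A MEI4 peak was listed in all of Spo11KO, Iho1KO and Hormad1KO at 314 of the 376, and the most frequent gap was Iho1KO alone, at 40. The MEI4 lists held 3817 peaks in Spo11KO, 3828 in Hormad1KO and 2679 in Iho1KO, against 1566 in the wild type and 80 in Prdm9KO. Whether list length had a part in the lower Iho1KO share was not tested. In the wild type, the DMC1 value had a median of 1957 at the 329 hotspots with MEI4 in Iho1KO, and of 1545 at the 47 others.

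The shares in Spo11KO and Hormad1KO were also high in the other classes, at 93.7% and 94.9% of axis hotspots with IHO1 (differences 2.81 points, -0.349 to 6.17, and 2.20 points, -0.706 to 5.31). At equal strength the difference in Hormad1KO was 7.33 points (0.690 to 14.0) and excluded 0, and over the DMC1 classes with at least 20 hotspots of each kind it was 1.99 points (-1.74 to 5.71) and did not. The weakest class held 9 axis hotspots with IHO1, of which 4 had MEI4 in Prdm9KO. The shares were 93.1% and 90.5% of MEI4-only hotspots (differences 3.41 points, 0.529 to 5.94, and 6.60 points, 3.64 to 9.30), and these differences did not exclude 0 at equal strength. With only the wider 50% of each MEI4 list, the differences from MEI4-only hotspots were 27.3 points (21.8 to 32.3) in Spo11KO and 23.1 points (17.3 to 28.4) in Hormad1KO. For MEI4 in Iho1KO the share was 90.3% at axis hotspots with IHO1, and the difference of -2.81 points (-7.40 to 1.81) did not exclude 0. It was 73.7% at MEI4-only hotspots, 13.8 points (8.98 to 18.3) lower than at the axis hotspots without IHO1, and this gap was 1.93 points (-4.45 to 8.30) at equal DMC1 strength and 25.2 points (19.1 to 31.1) with the wider 50% of the list. IHO1 in Spo11KO was listed at 86.6% of the hotspots with MEI4 in Iho1KO and at 66.0% of those without, a difference of 20.7 points (8.10 to 35.3).

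Of the 125 hotspots with wild-type HORMAD1, 56 had it in Spo11KO (44.8%), and of the 351 with wild-type SYCP3, 114 had it in Spo11KO (32.5%) and 36 in Hormad1KO (10.3%). Counted over all 376 hotspots, with or without a wild-type peak of the same protein, HORMAD1 was listed at 135 of 376 hotspots in Spo11KO (35.9%, background 5.30%), 16 in Iho1KO (4.26%, background 1.43%), 12 in Mei4KO (3.19%, background 2.04%) and 3 in Prdm9KO (0.798%, background 0.391%). SYCP3 was listed at 116 in Spo11KO (30.9%, background 5.95%), 37 in Hormad1KO (9.84%, background 1.46%), 23 in Iho1KO (6.12%, background 6.56%), 4 in Mei4KO (1.06%, background 1.11%) and none in Prdm9KO (background 1.10%). In Iho1KO and Mei4KO the SYCP3 shares were thus near those of any hotspot. Axis hotspots with IHO1 had higher shares in Iho1KO. These were 13.7% for HORMAD1 (difference -9.42 points, -13.7 to -5.33) and 16.2% for SYCP3 (difference -10.1 points, -14.8 to -5.59). At MEI4-only hotspots they were 2.66% and 3.50%. The differences in Iho1KO were not weighted for strength. Of the 376, 343 had neither axis protein in Iho1KO (91.2%), near the 92.7% of all autosomal hotspots. Lists of HORMAD1 held 1715 peaks in the wild type, 2897 in Spo11KO, 3149 in Iho1KO, 5275 in Mei4KO and 1009 in Prdm9KO. Those of SYCP3 held 1911 in the wild type, 2369 in Spo11KO, 823 in Hormad1KO, 5380 in Iho1KO, 1125 in Mei4KO and 607 in Prdm9KO. The part of list length in the axis shares was not tested.

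In Spo11KO, 65 of the 376 hotspots had both axis proteins, 70 HORMAD1 without SYCP3, 51 SYCP3 without HORMAD1 and 190 neither (50.5%, against 91.2% of all autosomal hotspots). HORMAD1 in Spo11KO was listed at 44.8% of the 125 hotspots with wild-type HORMAD1 and at 31.5% of the 251 without, a difference of 13.3 points (2.98 to 23.6). So 79 hotspots had a HORMAD1 peak without SPO11 and none in the wild type. The difference of 13.3 points was not weighted for strength.

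Axis proteins were also listed in Spo11KO and Hormad1KO more often at hotspots with wild-type IHO1. Among hotspots with wild-type HORMAD1, it was again listed in Spo11KO at 60.5% of those with IHO1 and 44.8% of those without (difference -15.7 points, -25.8 to -5.19). Among hotspots with wild-type SYCP3, it was again listed in Spo11KO at 53.2% and 32.5% (difference -20.7 points, -27.8 to -13.3). Neither of these differences was weighted for strength. Over all hotspots of each class, HORMAD1 in Spo11KO was at 57.8% of those with IHO1, and the axis hotspots without IHO1 were lower by 21.9 points (difference -21.9, -28.8 to -14.7). SYCP3 in Spo11KO was at 51.6% (difference -20.7, -27.6 to -13.6) and SYCP3 in Hormad1KO at 21.9% (difference -12.1, -17.4 to -6.82). Weighted to equal strength, the differences were -9.71 points (-19.3 to -0.0829), -14.3 points (-24.0 to -4.67) and -7.15 points (-14.0 to -0.328). These weighted values lean on DMC1 classes with 9 and 14 axis hotspots with IHO1. Of these 9, 8 had SYCP3 in Spo11KO, and 6 had it in Prdm9KO. In the same class, 7 and 0 of the 24 axis hotspots without IHO1 did. Over the 2 classes that hold at least 20 of each the weighted differences were -3.96 points (-13.7 to 5.81), -5.60 points (-15.2 to 3.98) and -5.12 points (-11.9 to 1.66), and none excluded 0. Against MEI4-only hotspots the axis hotspots without IHO1 had more HORMAD1 in Spo11KO by 22.5 points (17.1 to 27.9; 14.2 with the wider 50% of the list), more SYCP3 in Spo11KO by 17.7 points (12.5 to 23.0) and more SYCP3 in Hormad1KO by 8.58 points (5.73 to 12.1), and each of these held at equal strength.

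**Figure D3:**
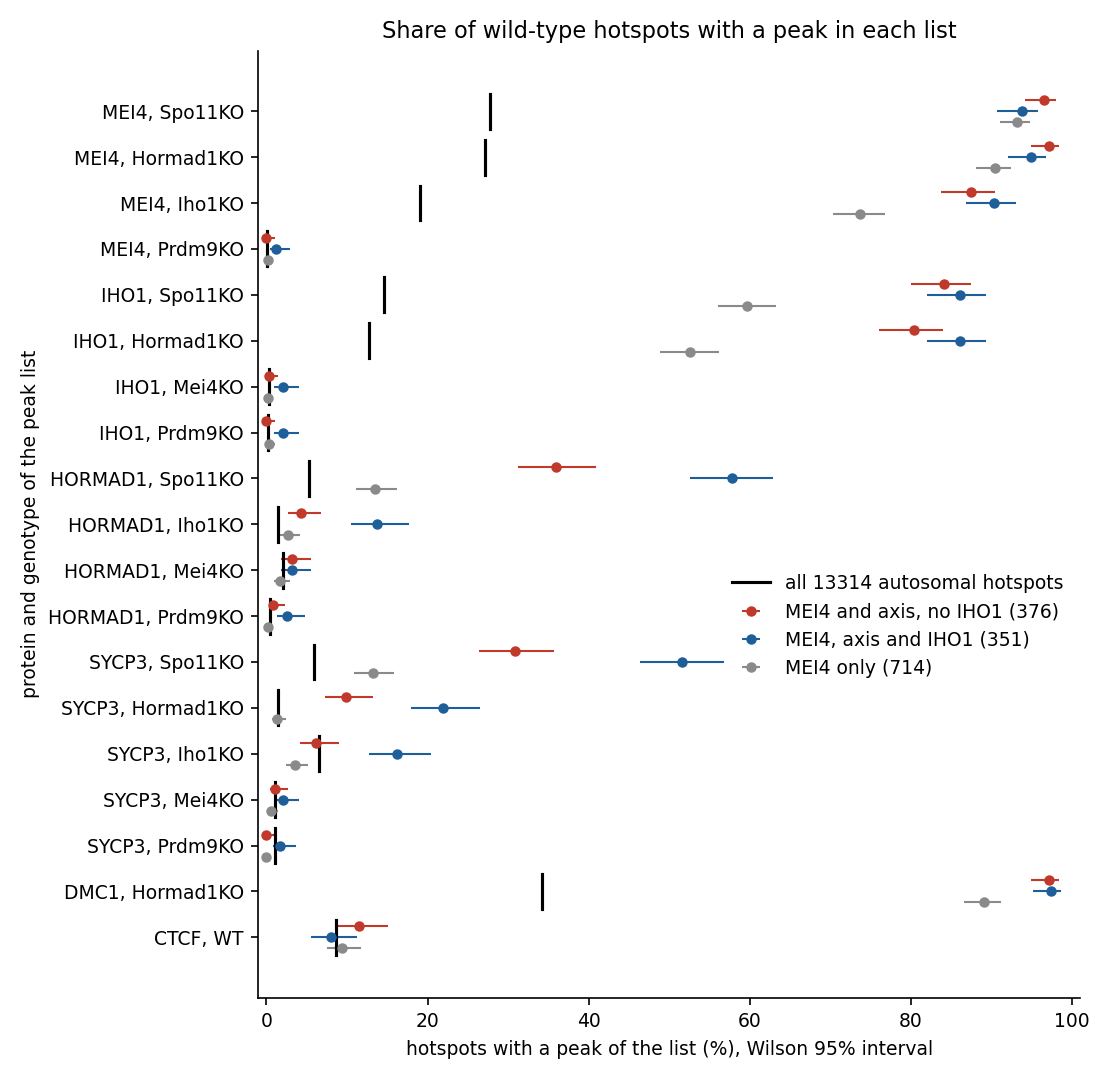
Share of hotspots with a peak (x axis, percent, Wilson 95% bars) in each list that did not choose the classes (y axis, protein and genotype), for the 3 classes of MEI4 hotspots, with all autosomal hotspots as black lines. The 376 axis hotspots without IHO1 sit at 80.3% to 97.1% for MEI4 and IHO1 in Spo11KO and Hormad1KO, and between the other classes for HORMAD1 and SYCP3 in Spo11KO.

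The shape of the axis signal differed between genotypes at the same hotspots. In the wild type the SYCP3 peaks were broad, with a median width of 3882 bp against 2175.5 bp for MEI4 peaks and 2072 bp for the hotspots themselves. A SYCP3 peak covered the hotspot centre at 260 of the 351 hotspots that had one (74.1%, 69.2 to 78.4), peaks lay on both sides but not over the centre at 18, and on 1 side at 73. At axis hotspots with IHO1 wild-type SYCP3 covered the centre at 310 of 331 (93.7%, 90.5 to 95.8), with a median width of 5328 bp. MEI4 covered the centre at all 376. Along the hotspots SYCP3 coverage was highest away from the centre, at 81.4% of the 376 hotspots 1.2 kb before it and 77.4% 1 kb after it, and 69.1% at the centre. Since the rule asked for an overlap with the hotspot, coverage near it was partly set by the rule.

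Wild-type HORMAD1 was of the same kind. Its peaks had a median width of 4565 bp and covered the centre at 98 of 125 hotspots (78.4%, 70.4 to 84.7). At axis hotspots with IHO1 they covered it at 249 of 281 (88.6%, 84.4 to 91.8). Coverage was 27.9% of the 376 hotspots 1.3 kb before the centre, 26.1% at it and 28.5% 1.3 kb after it.

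In Spo11KO both axis proteins were narrow and centred. SYCP3 peaks covered the centre at 116 of 116 hotspots, with a median width of 1755.5 bp. HORMAD1 peaks did so at 134 of 135, with a median width of 1672 bp. At the 114 hotspots with SYCP3 in both genotypes, the median width was 4738 bp in the wild type and 1745 bp in Spo11KO, and the Spo11KO peak was the narrower at 111. For HORMAD1 the medians at 56 such hotspots were 5287.5 bp and 1886 bp, with the Spo11KO peak narrower at 51. Over the whole lists SYCP3 peaks had median widths of 2791 bp in the wild type and 1631 bp in Spo11KO, so the lists also differed as wholes. At the 36 hotspots with SYCP3 in both the wild type and Hormad1KO the medians were 5046.5 and 4805.5 bp, while the whole Hormad1KO list had a median of 1846 bp. The other classes had the same shape in Spo11KO. Where listed, SYCP3 covered the centre at 181 of 181 axis hotspots with IHO1 (median width 1991 bp) and 94 of 94 MEI4-only hotspots (1479.5 bp). HORMAD1 did so at 201 of 203 and 96 of 96. At 176 axis hotspots with IHO1 and SYCP3 in both genotypes, its median width was 5878 bp in the wild type and 1979 bp in Spo11KO, narrower at 168.

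MEI4 and IHO1 in the knockouts were focal too. IHO1 covered the centre at 316 of 316 hotspots in Spo11KO and at 299 of 302 in Hormad1KO, with median widths of 1907.5 and 1920 bp and median distances between peak and hotspot centres of 137.5 and 147 bp. MEI4 peaks changed little at the axis hotspots without IHO1, with medians of 2170 bp in the wild type and 2055 bp in Spo11KO over 363 shared hotspots, the latter narrower at 211. Over 329 shared axis hotspots with IHO1 the MEI4 medians were 2984 and 2239 bp, with Spo11KO narrower at 253. The whole MEI4 lists had medians of 1946.5 and 1661 bp. At axis hotspots with IHO1 the wild-type IHO1 peak was broad (3983 bp) and covered the centre at 83.8%, and the IHO1 peak of Spo11KO had a median width of 1999 bp.

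**Figure D4:**
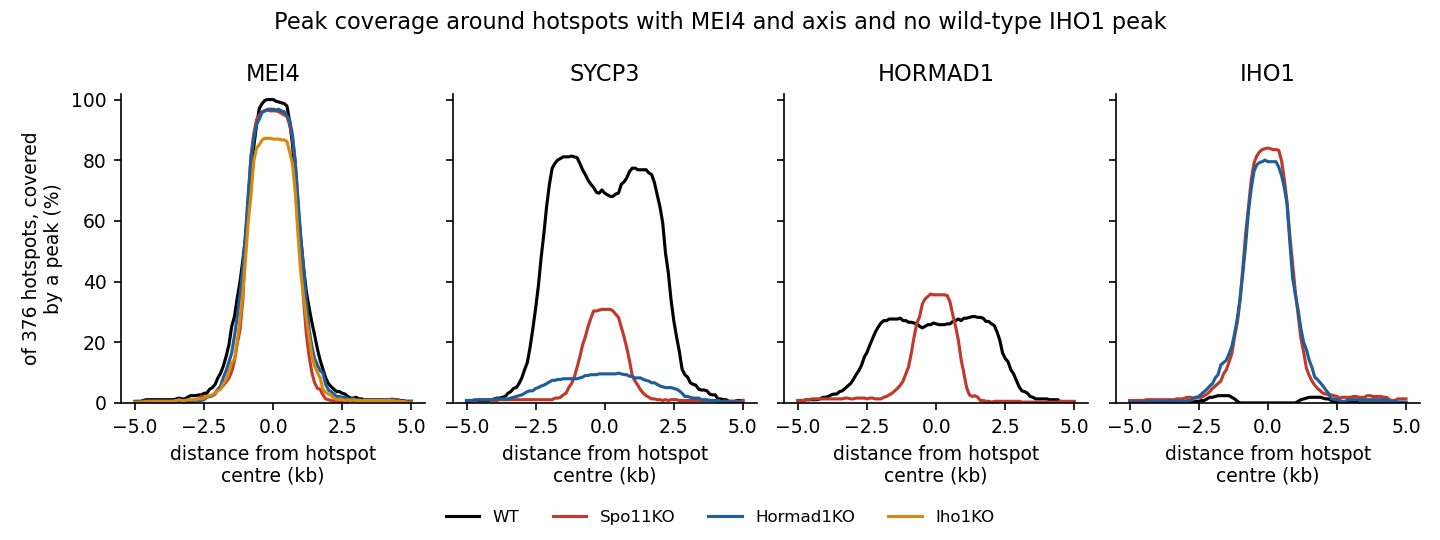
Share of the 376 axis hotspots without IHO1 covered by a peak (y axis, percent) at each distance from the hotspot centre (x axis, kb, steps of 100 bp), for MEI4, SYCP3, HORMAD1 and IHO1, with 1 line per genotype drawn (WT, Spo11KO, Hormad1KO, and Iho1KO for MEI4). Wild-type SYCP3 is broad and lower at the centre (69.1%) than 1.2 kb before it (81.4%), and SYCP3, HORMAD1 and IHO1 of Spo11KO are narrow and centred.

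DMC1 hotspots persisted without HORMAD1. Of the 376, 365 were hotspots in Hormad1KO (97.1%, background 34.2%). The difference from axis hotspots with IHO1 was -0.361 points (-2.90 to 2.22), and from MEI4-only hotspots 8.00 points (4.94 to 10.8), which became -0.135 points (-5.03 to 4.76) at equal strength. With only the upper 50% of the Hormad1KO list by DMC1 value, the differences were -5.19 points (-9.31 to -1.09) and 26.4 points (21.4 to 30.9). A DMC1 value ranks hotspots within its own list only, so the lists were compared by rank over the 4548 autosomal hotspots shared by the genotypes. The Hormad1KO list held 5002 hotspots, and its value had a median of 278.5 at the 365. The 365 hotspots had a median percentile of 82.6 in the wild type and 81.5 in Hormad1KO, and 177 moved up and 188 down.

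Rank in Hormad1KO differed with IHO1 in the same genotype. The 301 hotspots with an IHO1 peak in Hormad1KO had a median percentile of 82.9 in the wild type and 83.7 in Hormad1KO, with a median shift of 0.98. The 64 without one started from a like rank of 81.2 and had a median of 58.5 in Hormad1KO, with a median shift of -19.9, and 45 of them moved down. The same order was seen in the other classes, with shifts of -2.79 and -16.1 at axis hotspots with IHO1 and 9.43 and -17.2 at MEI4-only hotspots. Both measures come from Hormad1KO testes, hotspots are not replicates, and no test was made.

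**Figure D5:**
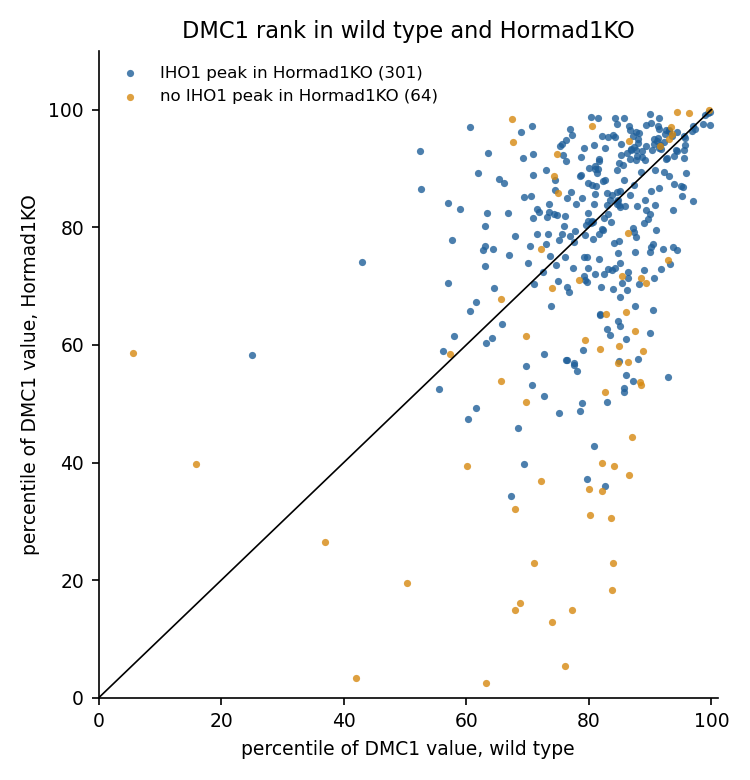
Percentile of the DMC1 value in Hormad1KO (y axis) against the wild type (x axis) for the 365 axis hotspots without IHO1 found in both lists, among 4548 shared autosomal hotspots, with the line of equal rank. Most hotspots without an IHO1 peak in Hormad1KO (45 of 64) lie below the line.

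Individual sites show the range. By DMC1 value the strongest was at chr6:37778599-37780989, 91.0 kb from Trim24, with a value of 15504 in the wild type and 4860 in Hormad1KO (percentiles 99.8 and 99.5). Its axis peak was HORMAD1, without SYCP3, and it had IHO1 in Spo11KO and Hormad1KO. The next were in Tmprss7 (chr16:45682706-45685217, DMC1 value 13305.5), a transmembrane protease gene, and in Nf1 (chr11:79545600-79548424, 12505.5), which encodes the Ras regulator neurofibromin. Dlc1 (chr8:36569661-36572502, 11184.5) and Fto (chr8:91617379-91619766, 9227.5), an RNA demethylase gene, held the other two. All 5 had MEI4 in Spo11KO, Iho1KO and Hormad1KO, and IHO1 and HORMAD1 in Spo11KO. The Nf1 site was the only one of the 5 without IHO1 in Hormad1KO, and its DMC1 value there, 8873.5, was the highest of the 365.

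A second set is the sites found in the largest number of the 21 lists of the 4 proteins. The site in Allc (chr12:28578254-28580339, DMC1 value 1735) was in 14 of them, 12 from knockouts, and also at a CTCF peak. Those 17.5 kb from Ccdc91 (chr6:147648847-147651308, 3108.5) and in Sdccag8 (chr1:176976257-176978984, 1855) were in 13 each. Those in Dlc1 and in the ubiquitin ligase gene Ubr1 (chr2:120914592-120917104, 3195) were in 12. Over the 17 knockout lists alone the median of the 376 was 5, with a range of 1 to 12, against 6 at axis hotspots with IHO1 and 4 at MEI4-only hotspots.

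At the other end were sites with 1 or 2 knockout peaks of these proteins. The site 822 kb from Tbl1xr1 (chr3:21253412-21255613) had a DMC1 value of 2043.5 and MEI4 in Spo11KO, and its value in Hormad1KO was 31. Its DMC1 percentile was 83.8 in the wild type and 18.3 in Hormad1KO. The site 115 kb from Mterf1b (chr5:4311643-4313601, 1493) and that in Agrn (chr4:156171015-156172809, 187) had MEI4 in Hormad1KO, and the Mterf1b site was no DMC1 hotspot there. Sites in Frmd4a (chr2:4247314-4249337, 2028) and 257 kb from Cnbd1 (chr4:18509645-18511588, 2701) had MEI4 in Spo11KO and Hormad1KO. None of these 5 had IHO1 in a knockout.

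The strongest of the 21 hotspots without IHO1 in either Spo11KO or Hormad1KO was in the deacetylase gene Sirt1 (chr10:63324863-63327313). It had a DMC1 value of 3597.5, wild-type HORMAD1 and SYCP3, both again in Spo11KO, and MEI4 in 3 knockouts. The Cnbd1 site and one in Fhl2 (chr1:43172725-43174784, 2658.5) followed. Among the hotspots without MEI4 in Iho1KO the strongest were those 764 kb from Aga (chr8:52746969-52749026, 3011), in Kcnq5 (chr1:21917535-21919370, 2857.5) and near Cnbd1. The first of these had IHO1 in Hormad1KO and the second in both knockouts. Of the 11 hotspots not listed for DMC1 in Hormad1KO, the strongest were 19.8 kb from Sh3glb1 (chr3:144662919-144664784, 1903.5), near Mterf1b, and 6.49 kb from Baiap2l1 (chr5:144363859-144365353, 1225).

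Some sites lay near the limits of the rule. When the classes asked for an overlap of at least 50%, this class held 325 hotspots, and the MEI4-only class held 814 in place of 714. The MEI4 overlap was at least 871 bp everywhere, and the axis overlap was under 200 bp at 19 hotspots. The smallest was 11 bp in Txndc16 (chr14:45152942-45154894), then 20 bp near Rdh16 (chr10:127824897-127826471) and 43 bp near Capn8 (chr1:182554113-182555922). On the IHO1 side, 16 hotspots had a wild-type IHO1 peak within 1 kb without touching it, the nearest 16 bp away. Of these 16, 15 had IHO1 in Spo11KO and 16 in Hormad1KO. Just outside the rule, 21 MEI4-only hotspots had a wild-type axis peak within 1 kb.

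These hotspots lay in protein-coding genes more often than axis hotspots with IHO1 and less often than MEI4-only hotspots. The centre was in a RefSeq protein-coding gene at 219 of 376 (58.2%, 53.2 to 63.1), 47.0% and 66.9% in these classes, and at 55.3% of all autosomal hotspots. The differences were 11.2 points (3.97 to 18.3) and -8.70 points (-14.8 to -2.68). At equal strength they were 16.1 points (6.16 to 26.1) and -13.0 points (-22.4 to -3.72). This comparison was chosen after its values were seen. A start site from the RefSeq promoter table lay within 1 kb of the hotspot at 19 of the 376 (5.05%, 3.26 to 7.76), against 10.8% of all autosomal hotspots. The share was 2.28% at axis hotspots with IHO1 and 4.62% at MEI4-only hotspots, and the differences of 2.77 points (-0.029 to 5.70) and 0.431 points (-2.11 to 3.44) did not exclude 0.

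A CTCF peak, which marks sites of an architectural DNA-binding protein, was at 43 of 376 (11.4%, background 8.61%). The differences from axis hotspots with IHO1, 3.46 points (-0.899 to 7.80), and from MEI4-only hotspots, 2.05 points (-1.64 to 6.15), included 0. The 43 had a lower median DMC1 value, 1390.5 against 1962 at the 333 others. Of 4 lists compared between the 43 and the 333, HORMAD1 in Iho1KO was at 5 and 11 of them, a difference of 8.32 points (1.3 to 21.3). The other differences included 0, at 3.6 points (-2.79 to 16.1) for SYCP3 in Iho1KO, 4.27 points (-0.871 to 16.0) for HORMAD1 in Mei4KO and 7.18 points (-6.64 to 22.8) for SYCP3 in Spo11KO.

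Across chromosomes the share of MEI4 hotspots that were axis hotspots without IHO1 ran from 3 of 38 on chromosome 19 (7.89%, 2.72 to 20.8) to 32 of 76 on chromosome 8 (42.1%, 31.6 to 53.3). Chromosome 12 was next, with 28 of 72 (38.9%). Among the 19 intervals, those of chromosomes 8 and 12 lay wholly above the 25.7% of all autosomes and that of chromosome 19 wholly below. Of the 376 hotspots, 20 lay within the last 5 Mb of the listed sites of a chromosome (5.32%), against 3.77% of all autosomal hotspots.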

How the data were processed

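Wild-type and knockout peak lists of synchronised mouse testes were analysed as deposited, 1 list per group. The submitters' processing notes name Bowtie2, MACS2 and the build mm10, without versions or roles, and pooling of replicates is not given in the sources used here. From each protein's lists the authors had subtracted its knockout's signal, as the design text of the series states. The deposited MEI4, IHO1, HORMAD1 and SYCP3 lists give positions only. The authors' DMC1 signal value per hotspot has no named unit, and all values were multiples of 0.5. The deposited CTCF score ran from -6.85 to 37.3 and was used only to take the upper 50% of its list. For the protein lists, which have no value, the wider 50% of peaks was taken instead.

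A peak counted at a hotspot where they shared at least 1 bp. Shares have Wilson 95% intervals, and differences of shares Newcombe 95% intervals, said to exclude 0 or not. No p-value is given, since each group has 1 list and hotspots are not replicates. These intervals hold counting error alone, with hotspots taken as independent. The floor of a count of 0 is 3 counts. Shares at equal strength were weighted over 4 classes of DMC1 value with near-equal numbers of MEI4 hotspots, within which strength still varied. Sites named, none on chromosome 18, are the 5 with the highest DMC1 value, the 5 in most and the 5 in fewest of the 21 protein lists (ties by DMC1 value), the strongest 3 with IHO1 in both Spo11KO and Hormad1KO, with it in neither, without MEI4 in Iho1KO or without DMC1 in Hormad1KO, and the 3 with the smallest overlap. Names and start sites come from RefSeq (GRCm38.p6), with 20661 protein-coding genes and 32851 promoter windows. The classes, lists and named sites were chosen with earlier results of these data known. The overlap code was tested on simulated data. Python 3.11.15, pandas 2.3.3 and scipy 1.17.1 were used.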

Additional observations from a re-analysis of the deposited data

How the results depend on the processing

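The 20 differences between classes kept their direction and their side of 0 in 147 of 180 settings, 17 changed direction, 10 lost and 6 gained an interval that excludes 0. All 20 held with an overlap of at least 50% for the list read out, with no IHO1 peak within 5 kb, with MEI4 peaks that meet 1 hotspot, and without the last 5 Mb of chromosomes. Differences below are axis hotspots without IHO1 minus the class named, in points, and the cause of each change was not tested.

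Against axis hotspots with IHO1, central 1 kb windows gave -3.73 for IHO1 in Hormad1KO, 3.06 for MEI4 in Hormad1KO and 3.38 for MEI4 in Spo11KO. Classes built with an overlap of at least 50%, which left 325 hotspots, gave -0.233 for MEI4 in Hormad1KO, -3.94 for IHO1 in Hormad1KO and 0.398 for IHO1 in Spo11KO, and 2.88 for MEI4 in Spo11KO against MEI4-only hotspots. The upper 50% of the list read out, by peak width for the protein lists and by the authors' value for DMC1 and CTCF, gave -0.193 for MEI4 in Spo11KO, -3.52 for MEI4 in Hormad1KO and -5.19 for DMC1 in Hormad1KO against axis hotspots with IHO1, and 2.98 for CTCF against MEI4-only hotspots. This setting also moved differences that kept their call by over 1.5 times, among them -13.4 for IHO1 in Hormad1KO against axis hotspots with IHO1. Against MEI4-only hotspots it gave 27.3 for MEI4 in Spo11KO, 23.1 for MEI4 in Hormad1KO, 25.2 for MEI4 in Iho1KO, 14.2 for HORMAD1 in Spo11KO and 26.4 for DMC1 in Hormad1KO.

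Weighting over 4 classes of DMC1 value gave, against axis hotspots with IHO1, 3.54 for MEI4 in Iho1KO, 7.33 for MEI4 in Hormad1KO (an interval that now excluded 0), 5.10 for IHO1 in Spo11KO, 4.46 for IHO1 in Hormad1KO and 4.89 for DMC1 in Hormad1KO. Against MEI4-only hotspots it gave -1.38 for MEI4 in Spo11KO, 1.93 for MEI4 in Iho1KO, 0.642 for MEI4 in Hormad1KO and -0.135 for DMC1 in Hormad1KO. Weighting over the classes with at least 20 hotspots of each kind was chosen after seeing the data. It gave, against axis hotspots with IHO1, 2.69 for IHO1 in Spo11KO, 0.731 for IHO1 in Hormad1KO, 2.75 for MEI4 in Iho1KO, -3.96 for HORMAD1 in Spo11KO, -5.60 for SYCP3 in Spo11KO, -5.12 for SYCP3 in Hormad1KO, 0.352 for DMC1 in Hormad1KO and -1.47 for CTCF. Against MEI4-only hotspots it gave -1.10 for MEI4 in Spo11KO, 3.55 for MEI4 in Iho1KO, 1.18 for MEI4 in Hormad1KO, -0.176 for DMC1 in Hormad1KO and 5.09 for CTCF. The differences in gene position held in all 4 settings tried.

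The number of hotspots was 360 with no IHO1 peak within 5 kb. Leaving out a replicate was not possible with 1 list per group. No paired analysis was possible because each group has 1 list without a replicate number. Depth is unknown, and differences between genotypes can move with it.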
